A study of Arabidopsis thaliana with 15 samples.

Results

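Xylem secondary wall genes are described here through 10 genes of the 33326 in the deposited table, taken by their locus identifiers. They are CESA4, CESA7, CESA8, COBL4, IRX9, IRX10, XCP1, XCP2, LAC4 and LAC17. RNA was sequenced from dissected inflorescence meristems of Arabidopsis thaliana in 15 libraries, 3 for each of 5 labelled genotypes, and each library pooled 36 meristems. The groups were the wild type Col-0, the mutants labelled myb3r1 and myb3r4, the line labelled myb3r1myb3r4 (the double mutant below) and the line labelled pMYB3R4::GFP-MYB3R4mNES (the mNES line below), which carries a GFP-tagged form of MYB3R4 driven by the promoter of MYB3R4. The labels do not name the mutant alleles, do not explain mNES and do not say in which genotype the transgene sits. Plants were kept under long days (16 h light, 8 h dark) until stems were about 1 cm tall, and no age in days is given. Whether replicates came from separate sets of plants is not stated, and a label called shift experiment, equal to the replicate number, is not explained. The p-values then reflect only how far these libraries spread, which may be technical variation.

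Water-conducting vessel elements and fibres of the xylem lay down a thick secondary wall of cellulose, xylan and lignin inside the primary wall, and vessel elements then die and clear their contents. In Arabidopsis the programme is known to be switched on by NAC transcription factors (VND6, VND7, NST1, NST3), which act through MYB46 and MYB83 on the genes of the wall enzymes. MYB3R proteins are MYB factors of another kind, known for controlling genes of cell division.

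The values are TPM, transcript levels corrected for length and scaled to a total of 1000000 in every library, so levels of different genes can be set side by side. Read totals cannot be had from TPM, and sequencing depth is unknown. Each library held 20370 to 20965 genes at 1 TPM or more. Correlations of log2 values across genes were 0.985 to 0.988 over 15 replicate pairs and 0.906 to 0.984 over 90 pairs from different groups. MYB3R1 stood at 13.1 to 13.5 TPM in Col-0, 17.2 to 18.1 in myb3r1, 14.02 to 14.8 in myb3r4, 14.02 to 15.2 in the double mutant and 12.4 to 13.6 in the mNES line. MYB3R4 stood at 10.4 to 12.8 TPM in Col-0, 10.4 to 10.9 in myb3r1, 12.7 to 13.4 in myb3r4, 16.8 to 17.4 in the double mutant and 58.9 to 63.5 in the mNES line. Libraries labelled as mutant for a gene thus did not have less of its transcript. Gene-level TPM cannot show an insertion, and the genotypes are used as labelled. Of the markers that define the tissue, STM was at 44.2 to 62.0 TPM and WUS at 6.73 to 16.9 TPM, while CLV3 was at or near 0 in every library, from 0 to 0.275 TPM.

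All 10 wall genes were measured above 1 TPM in all 15 libraries, with a lowest value of 2.31 TPM for IRX9. Their promoters are shown before their values because 9 of the genes moved together in the double mutant. The 300 bases upstream of the start of each annotated gene were read from TAIR10.1 and searched on both strands for 4 motifs. The TERE, an element of vessel element genes with the letters CTTNAAAGCNA, was present in 118 of 27444 promoters (0.43%) and in those of CESA4 and XCP1. The SMRE, a site of MYB46 and MYB83, was searched as the words ACCAAAT or ACCAAAC or ACCAACT or ACCAACC or ACCTAAT or ACCTAAC or ACCTACT or ACCTACC. It was present in 33.9% of promoters and in 4 of 10 members, namely CESA4, CESA8, IRX10 and LAC17. The SNBE, a binding site of secondary wall NAC factors with a loose consensus, was present in 48.7% of promoters and in 8 of 10 members, all but CESA4 and IRX9. The core AACGG of the element bound by MYB3R proteins was present in 23.4% of promoters and in 0 of 10 members. These matches describe letters in a window and are not shown to be bound.

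The TERE matches are given in capitals with their flanks, CESA4 at chr5:17714361-17714389 on the plus strand (20 to 10 bases before the start) and XCP1 at chr4:16810398-16810426 on the plus strand (75 to 65 bases before the start, where it overlaps an SNBE match).
CESA4: acataataaCTTGAAAGCTActctaagtt
XCP1: ttgtctttgCTTCAAAGCCAatcctatga
The SMRE matches of CESA8 (chr4:10317148-10317176, minus strand), LAC17 (chr5:24167924-24167952, plus strand) and IRX10 (chr1:9531583-9531611, minus strand) are given likewise. Each stretch is written along the strand of its gene, and the CESA8 match is the reverse complement of a searched word.
CESA8: ttcttatagaaAGTTGGTgattgaaaaga
LAC17: ctcaagcaaacACCTAACtctcctttcct
IRX10: aaacgatcatgACCTACTacggaagttat
Whole windows are shown for the xylan pair, in which IRX9 fell in the double mutant and IRX10 did not pass the test, and for LAC4, the member with the largest fall. They lie at chr2:15589370-15589669 (minus strand), chr1:9531490-9531789 (minus strand) and chr2:15933944-15934243 (plus strand), and capitals again mark SMRE words.
IRX9: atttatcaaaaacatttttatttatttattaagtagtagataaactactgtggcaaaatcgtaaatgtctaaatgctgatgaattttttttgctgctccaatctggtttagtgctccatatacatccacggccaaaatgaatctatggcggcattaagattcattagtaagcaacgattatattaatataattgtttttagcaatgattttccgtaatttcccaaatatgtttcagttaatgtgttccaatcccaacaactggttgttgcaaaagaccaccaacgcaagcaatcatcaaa
IRX10: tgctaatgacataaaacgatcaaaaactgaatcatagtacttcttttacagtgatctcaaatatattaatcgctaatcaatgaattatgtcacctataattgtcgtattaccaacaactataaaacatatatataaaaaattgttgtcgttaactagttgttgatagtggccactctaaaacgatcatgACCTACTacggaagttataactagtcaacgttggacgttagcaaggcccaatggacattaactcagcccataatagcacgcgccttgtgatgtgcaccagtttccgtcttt
LAC4: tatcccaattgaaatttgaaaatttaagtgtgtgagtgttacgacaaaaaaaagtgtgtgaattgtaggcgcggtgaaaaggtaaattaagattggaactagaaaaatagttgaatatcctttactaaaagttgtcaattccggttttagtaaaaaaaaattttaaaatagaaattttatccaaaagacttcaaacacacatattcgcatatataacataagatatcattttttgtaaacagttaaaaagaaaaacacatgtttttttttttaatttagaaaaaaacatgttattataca
IRX10, the member that did not pass, holds an SMRE word, and LAC4 holds neither an SMRE word nor a TERE in its window. Both windows hold SNBE matches, and whether any of these motifs bears on the changes was not tested. The window of CESA4 lies wholly within the neighbouring gene AT5G44020, and that of LAC17 within AT5G60022 on the other strand. In the window of CESA8, 237 bases lie within AT4G06845 on the other strand, and in that of XCP1 35 bases within AT4G35335.

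Setting the double mutant against the wild type addresses the 2 MYB3R genes together. Levels of 9 of 10 wall genes fell, by 0.35 (XCP2) to 1.26 (LAC4) on the log2 scale, and IRX10 did not pass. The same 9 genes had all 3 double-mutant libraries below all 3 Col-0 libraries. Tests were made with limma on log2(TPM + 0.5) over 21737 genes, with Benjamini-Hochberg adjustment over all of them and a threshold of 0.05 for the adjusted p, and each fold change below is on that scale with its standard error (SE). In this comparison 41.6% of all genes tested passed, 17.1% lower than Col-0 and 24.5% higher. With median-of-ratios scaling these shares were 21.1% lower and 17.5% higher, so that lower genes made up 54.7% of calls in place of 41.1%. As a background for separation, 20.9% of genes had the double mutant wholly below Col-0. The median change of the 10 genes was -0.81, against 0.051 over all genes tested. The summed level of the 10 genes was lowest, middle and highest at 162, 170 and 191 TPM in Col-0 and at 94.3, 107 and 114 TPM in the double mutant. In pooled tissue, fewer xylem cells and less RNA per xylem cell cannot be told apart, nor can xylem from other tissues with secondary walls.

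**Figure D1:**
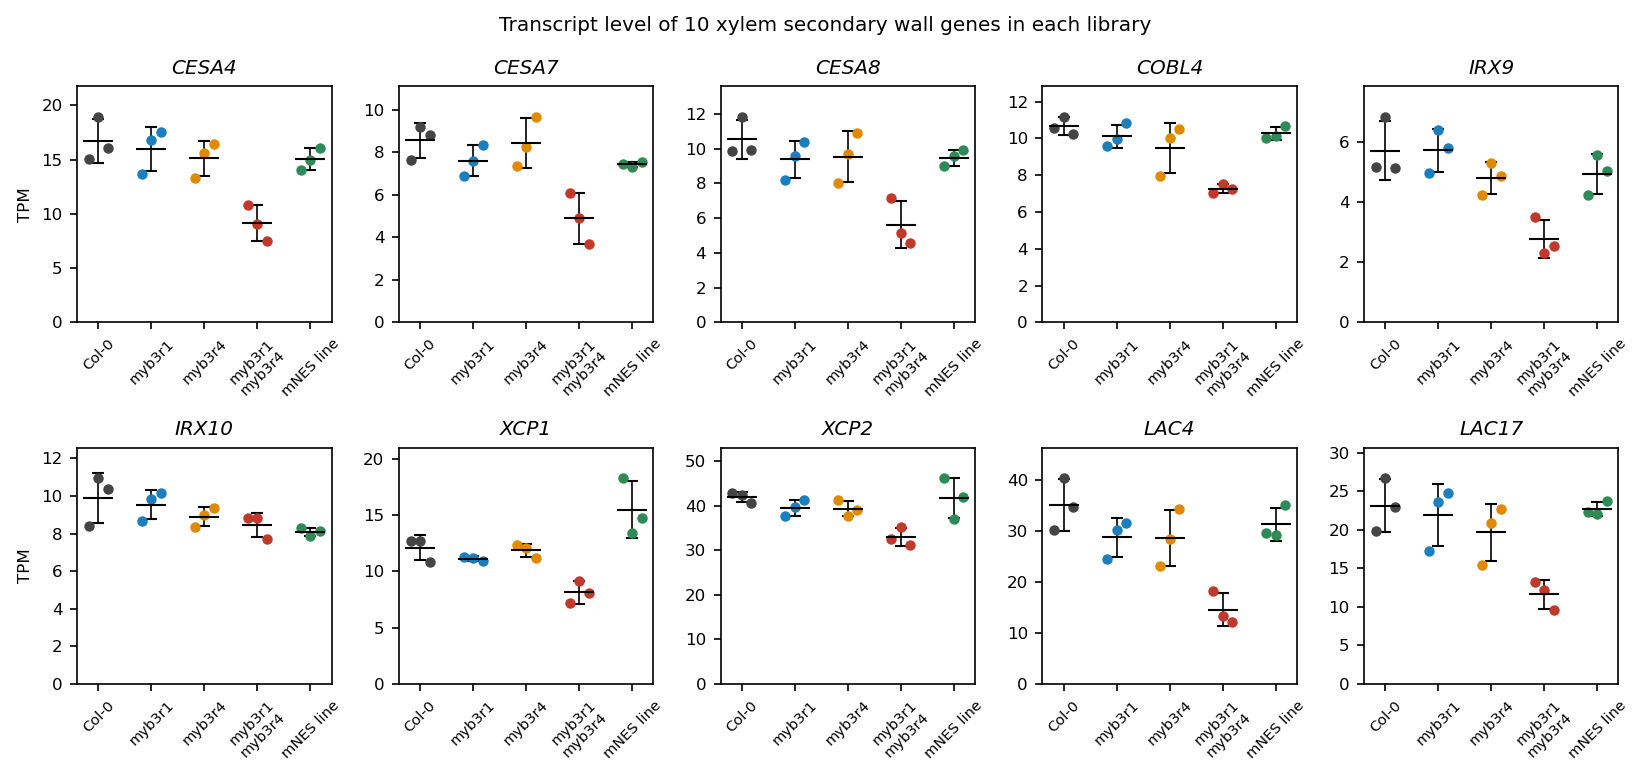
TPM of each of the 10 genes in the 15 libraries (points, in replicate order), with the mean and SD of each group of 3 (bars). Except for IRX10, the double-mutant points lie below every Col-0 point, and XCP1 is highest in the mNES line.

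Cellulose of the secondary wall is made by a complex of CESA4, CESA7 and CESA8, all of which are needed for it. CESA4 (AT5G44030, chromosome 5 from 17714390 to 17719723, TAIR10.1, as for all positions here) was at 15.04, 19.0 and 16.1 TPM in Col-0 and at 10.9, 9.11 and 7.51 TPM in the double mutant. It was at 13.7, 16.8 and 17.5 TPM in myb3r1, 13.3, 15.7 and 16.4 TPM in myb3r4 and 14.1, 14.9 and 16.1 TPM in the mNES line. The double mutant thus stood below the other 12 libraries, which overlapped between groups, and CESA4 fell by 0.84 against Col-0 (SE 0.131, limma adjusted p = 0.000221), to 54.8% of the Col-0 mean.

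CESA7 (AT5G17420, chromosome 5 from 5736630 to 5741500) was at 7.64, 9.20 and 8.84 TPM in Col-0 and at 6.06, 4.91 and 3.69 TPM in the double mutant. It was at 6.90, 7.60 and 8.34 TPM in myb3r1, 7.34, 8.24 and 9.67 TPM in myb3r4 and 7.43, 7.31 and 7.56 TPM in the mNES line. Its highest library was a myb3r4 replicate and its lowest the third double-mutant replicate. The change was -0.77 (SE 0.141, limma adjusted p = 0.000744), which left 57.1% of the Col-0 mean.

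CESA8 (AT4G18780, chromosome 4 from 10312624 to 10316886) was at 9.84, 11.8 and 9.92 TPM in Col-0 and at 7.13, 5.13 and 4.56 TPM in the double mutant. It was at 8.21, 9.55 and 10.4 TPM in myb3r1, 7.99, 9.70 and 10.9 TPM in myb3r4 and 8.98, 9.55 and 9.89 TPM in the mNES line. No double-mutant library reached the lowest value of another group, and CESA8 fell by 0.87 (SE 0.145, limma adjusted p = 0.000376) to 53.3% of the Col-0 mean. Of the 31-base words of its transcript, 15.1% also occur in transcripts of the neighbouring genes AT4G18770 and AT4G06845. AT4G18770 was at 0 to 0.140 TPM, and AT4G06845 is absent from the deposited values, so its level is unknown. For CESA4 the share was 0.929% and for CESA7 1.07%.

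The 3 subunits stood in similar proportions in Col-0 and the double mutant. The ratio of CESA7 to CESA4 was 0.514 ± 0.032 in Col-0 and 0.530 ± 0.035 in the double mutant, and that of CESA8 to CESA4 was 0.632 ± 0.020 and 0.609 ± 0.047 (SD, n = 3). In both ratios the double-mutant libraries overlapped those of Col-0. In myb3r1 the ratio of CESA8 to CESA4, at 0.568 to 0.600, lay wholly below Col-0, at 0.617 to 0.654. No test was made on the ratios. Primary walls are built by other subunits, and the sum of CESA4, CESA7 and CESA8 was 13.7% to 16.9% of the sum of CESA1, CESA3 and CESA6 in Col-0 and 6.98% to 10.07% in the double mutant. Those 3 primary wall genes were chosen for this ratio after their values were seen. Their sum was 237 ± 0.081 TPM in Col-0 and 234 ± 7.49 TPM in the double mutant, and these libraries overlapped.

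COBL4 (AT5G15630, chromosome 5 from 5084524 to 5086811) encodes a membrane-anchored protein of the COBRA family needed for secondary wall cellulose. It was at 10.6, 11.2 and 10.3 TPM in Col-0 and at 7.02, 7.52 and 7.24 TPM in the double mutant. In the other groups it was at 9.58, 9.96 and 10.8 TPM (myb3r1), 7.94, 10.01 and 10.5 TPM (myb3r4) and 10.03, 10.11 and 10.7 TPM (mNES line). It had the tightest replicates in the double mutant, with a coefficient of variation of 3.44%, and fell by 0.53 (SE 0.0865, limma adjusted p = 0.000329).

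Xylan, the main hemicellulose of these walls, is elongated by glycosyltransferases that include IRX9 and IRX10. IRX9 (AT2G37090, chromosome 2 from 15587394 to 15589369) was at 5.18, 6.85 and 5.14 TPM in Col-0 and at 3.50, 2.31 and 2.55 TPM in the double mutant. It was at 4.996, 6.42 and 5.82 TPM in myb3r1, 4.24, 5.32 and 4.88 TPM in myb3r4 and 4.26, 5.57 and 5.03 TPM in the mNES line. The double mutant lay below all of these, with a fall of 0.93 (SE 0.154, limma adjusted p = 0.00035) to 48.7% of the Col-0 mean.

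IRX10 (AT1G27440, chromosome 1 from 9528967 to 9531489) was at 8.40, 10.9 and 10.4 TPM in Col-0 and at 8.82, 8.83 and 7.72 TPM in the double mutant. It was at 8.66, 9.83 and 10.13 TPM in myb3r1, 8.36, 8.96 and 9.37 TPM in myb3r4 and 8.29, 7.87 and 8.13 TPM in the mNES line. Every group overlapped the double mutant, and the lowest mean was that of the mNES line. The change in the double mutant was -0.21 (SE 0.0926, limma adjusted p = 0.0848) with a 95% interval of -0.41 to -0.011. It passed with median-of-ratios scaling, at -0.26 (adjusted p = 0.0474), and without Col-0 replicate 1, at -0.32 (adjusted p = 0.0094). Whether IRX10 changed less than IRX9 was not tested.

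XCP1 and XCP2 are papain-like cysteine proteases that digest the contents of dying vessel elements. XCP1 (AT4G35350, chromosome 4 from 16810482 to 16812077) was at 12.7, 12.7 and 10.8 TPM in Col-0 and at 7.14, 9.13 and 8.11 TPM in the double mutant. It was at 11.3, 11.2 and 10.9 TPM in myb3r1, 12.3, 12.1 and 11.2 TPM in myb3r4 and 18.3, 13.4 and 14.8 TPM in the mNES line. The double mutant was the lowest group and the mNES line the highest, and neither overlapped another group. XCP1 fell by 0.55 in the double mutant (SE 0.107, limma adjusted p = 0.00122).

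XCP2 (AT1G20850, chromosome 1 from 7252111 to 7253747) had the highest level of the 10 genes, with 42.9, 42.5 and 40.7 TPM in Col-0 and 32.5, 35.2 and 31.3 TPM in the double mutant. It was at 37.7, 39.7 and 41.3 TPM in myb3r1, 41.2, 37.8 and 39.1 TPM in myb3r4 and 46.2, 37.1 and 41.9 TPM in the mNES line. The double mutant lay below all other libraries, but the fall was the smallest of the 9, at 0.35 (SE 0.0696, limma adjusted p = 0.00147), which left 78.5% of the Col-0 mean. The ratio of XCP1 to XCP2 was 0.265 to 0.299 in Col-0, 0.220 to 0.259 in the double mutant and 0.352 to 0.396 in the mNES line, and these 3 ranges did not overlap.

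LAC4 and LAC17 are laccases, enzymes that oxidise monolignols so that they join into lignin. LAC4 (AT2G38080, chromosome 2 from 15934244 to 15937616) was at 30.2, 40.3 and 34.6 TPM in Col-0 and at 18.1, 13.2 and 12.1 TPM in the double mutant. It was at 24.4, 30.2 and 31.5 TPM in myb3r1, 23.1, 28.3 and 34.2 TPM in myb3r4 and 29.6, 29.2 and 35.0 TPM in the mNES line. The fall in the double mutant was the largest of the 10 genes, at 1.26 (SE 0.167, limma adjusted p = 6.25e-05), to 41.3% of the Col-0 mean.

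LAC17 (AT5G60020, chromosome 5 from 24167996 to 24170462) was at 19.8, 26.7 and 22.9 TPM in Col-0 and at 13.2, 12.1 and 9.57 TPM in the double mutant. It was at 17.3, 23.6 and 24.7 TPM in myb3r1, 15.5, 20.8 and 22.7 TPM in myb3r4 and 22.3, 22.0 and 23.8 TPM in the mNES line. The double mutant lay below every other library, with a fall of 0.96 (SE 0.163, limma adjusted p = 0.000417) to 50.3% of the Col-0 mean. A long non-coding RNA gene on the other strand, AT5G60022 at 0.617 to 1.51 TPM, shares 20.4% of the words of LAC17, and whether strand was used in counting is not given in the sources used here. The ratio of LAC17 to LAC4 was 0.655 to 0.663 in Col-0 and 0.726 to 0.919 in the double mutant. It lay wholly above Col-0 also in myb3r1 (0.709 to 0.786) and in the mNES line (0.678 to 0.755), where neither laccase passed the test. In myb3r4 it was 0.661 to 0.735 and overlapped Col-0. The Col-0 spread of this ratio was narrow, with an SD of 0.0046 against 0.040 to 0.098 in the other groups. The other 6 members share no 31-base word with another annotated transcript.

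**Figure D2:**
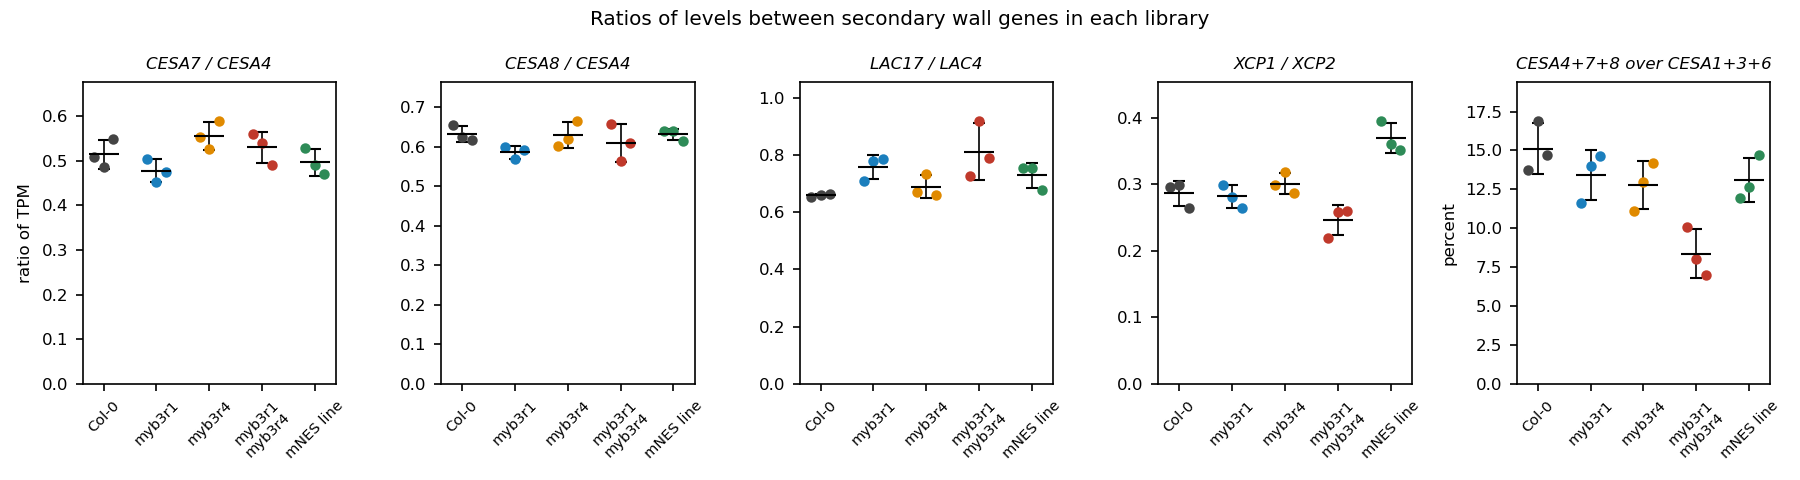
Ratios of TPM within each library for 4 pairs of wall genes, and the sum of the secondary wall CESA genes as a percent of CESA1, CESA3 and CESA6, with group mean and SD (bars, n = 3). CESA ratios to CESA4 stay between 0.452 and 0.665 in all libraries, while the percent is 15.1 ± 1.62 in Col-0 and 8.36 ± 1.57 in the double mutant.

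The libraries of a group tended to be high or low for many of the 10 genes at once. Col-0 replicate 2 was the highest of its group for 9 of 10 genes, myb3r1 replicate 1 the lowest for 9 and myb3r4 replicate 1 the lowest for 8. In the double mutant, replicate 1 was the highest for 6 genes and replicate 3 the lowest for 7. Replicate 3 was the highest for 8 genes in myb3r1, 7 in myb3r4 and 6 in the mNES line, but for 0 in Col-0 and 0 in the double mutant. Replicate 1 was the lowest for 6 genes in Col-0, 4 in the mNES line and 2 in the double mutant. The 10 genes are therefore not 10 independent readings of a library. In the double mutant CESA7 and CESA8 varied most, with coefficients of variation of 24.3% and 24.1%, against 9.56% and 10.7% in Col-0.

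Neither single mutant had a wall gene past the threshold. Against Col-0, 0 of 10 genes were called by limma in myb3r1, where 6.26% of all genes were, and 0 of 10 had an unadjusted p under 0.05. The changes ran from -0.28 (LAC4) to 0.0099 (IRX9) with a median of -0.086. In myb3r4, 0 of 10 were called, against 7.59% of all genes, and again 0 had an unadjusted p under 0.05. The changes there ran from -0.30 (LAC4) to -0.023 (XCP1) with a median of -0.14. The precision allows moderate falls, since the 95% intervals for LAC4 reached -0.64 in myb3r1 and -0.66 in myb3r4, and that of XCP2 reached -0.24 in both. Comparisons against Col-0 share its 3 libraries, so their values are not independent.

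**Figure D3:**
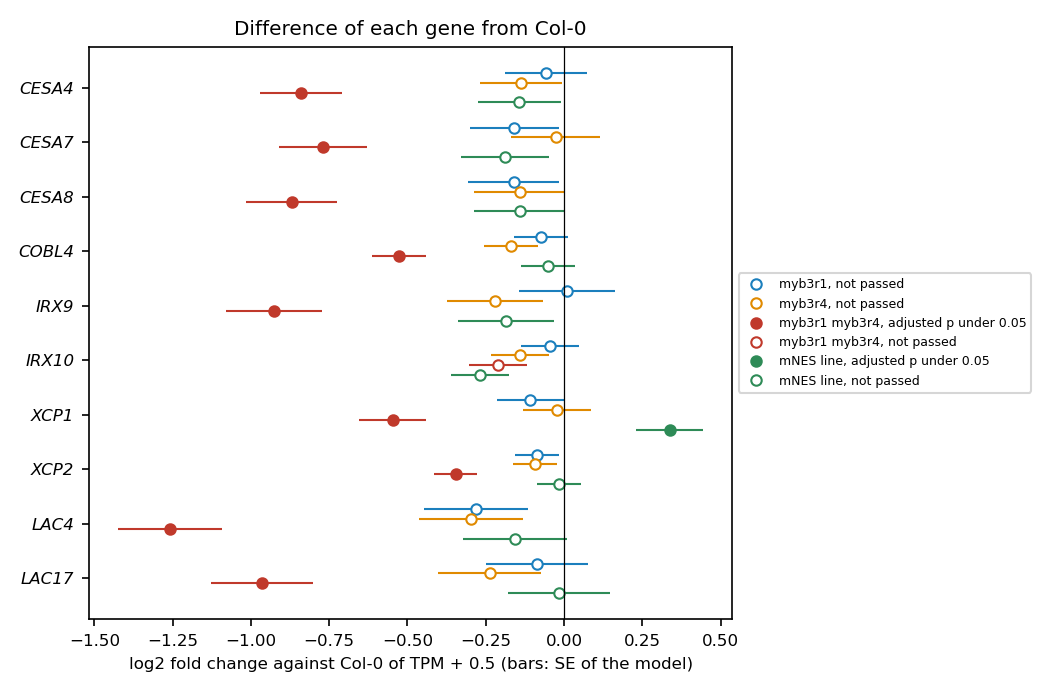
Difference of each gene from Col-0 on the log2(TPM + 0.5) scale in the 4 other groups, with the SE of the model (bars). Filled points passed the adjusted p of 0.05, as 9 of 10 genes did in the double mutant, 1 in the mNES line and 0 in the single mutants.

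The double mutant was also set against each single mutant, which asks what the loss of the second gene adds. Against myb3r1, 9 of 10 genes were lower by limma, where 30.1% of all genes were called and 12.9% were lower (16.1% with median-of-ratios scaling). Changes among the 9 ran from -0.26 (XCP2) to -0.98 (LAC4), each with all double-mutant libraries below myb3r1, as for 18.3% of all genes, and IRX10 was at -0.16 (SE 0.0926, adjusted p = 0.202). Against myb3r4 the same 9 genes were lower, where 34.7% of all genes were called and 14.6% were lower (18.1% with median-of-ratios scaling). Changes ran from -0.25 (XCP2) to -0.96 (LAC4), each with all double-mutant libraries below myb3r4, as for 19.1% of all genes, and IRX10 was at -0.070 (adjusted p = 0.59). The call of XCP2 was lost against myb3r1 without myb3r1 replicate 3 (adjusted p = 0.0537) or double-mutant replicate 3 (0.0574). Against myb3r4 it was lost without myb3r4 replicate 1 (adjusted p = 0.0508) or double-mutant replicate 3 (0.0586).

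The interaction contrast asks whether the double mutant departs from the sum of the single-mutant changes on the log2 scale. The departure was negative for all 10 genes, from -0.024 (IRX10) to -0.72 (IRX9), with a median of -0.58 against 0.032 over all genes tested, although IRX10 turned positive without any of 4 single libraries. By limma, 2 of 10 genes passed, CESA4 at -0.64 (SE 0.185, adjusted p = 0.0382) and IRX9 at -0.72 (SE 0.217, adjusted p = 0.0477), and 8 had an unadjusted p under 0.05. Of all genes, 12.3% passed, 5.95% with a negative value (7.61% with median-of-ratios scaling). CESA7 (-0.58, adjusted p = 0.0749), CESA8 (-0.57, adjusted p = 0.0904), LAC4 (-0.68, adjusted p = 0.0799), LAC17 (-0.64, adjusted p = 0.0894) and XCP1 (-0.42, adjusted p = 0.0922) missed the threshold. Both calls were lost with no filter on low values (adjusted p = 0.0591 and 0.0731), with no variance trend (0.0531 and 0.0554) and with only the groups compared (0.0526 and 0.0541). That of IRX9 was also lost with 1 added to each TPM (0.0508) and with a replicate block, a term for the replicate number (0.0565). Leaving out single libraries gave between 0 and 5 called genes. The calls of both CESA4 and IRX9 were lost without Col-0 replicate 1 or 3, myb3r1 replicate 2 or 3, myb3r4 replicate 2 or 3, or double-mutant replicate 2 or 3.

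In the mNES line 1 of 10 wall genes was called against Col-0, and the changes ran from -0.27 (IRX10) to 0.34 (XCP1) with a median of -0.14. XCP1 was higher by 0.34 (SE 0.107, limma adjusted p = 0.0463), a comparison in which 17.0% of all genes were called and 7.60% were higher (9.99% with median-of-ratios scaling). Its call was lost without mNES replicate 1, at 0.21 (adjusted p = 0.172), and without Col-0 replicate 3, at 0.26 (adjusted p = 0.17). It was lost too without Col-0 replicate 1 (adjusted p = 0.0647), Col-0 replicate 2 (0.0638) or mNES replicate 3 (0.0669). Refits with no filter on low values (0.0668), no variance trend (0.0583), a replicate block (0.0577) or only the groups compared (0.138) lost it as well. All 3 mNES libraries lay above Col-0 for XCP1, as for 13.7% of all genes. IRX10 at -0.27 (adjusted p = 0.0646) and CESA7 at -0.19 (adjusted p = 0.402) did not pass. Both had all 3 mNES libraries below Col-0, an order whose share over all genes is not given here. IRX10 passed without Col-0 replicate 1, at -0.38 (adjusted p = 0.0111).

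Against myb3r4, 1 of 10 genes was called in the mNES line, again XCP1, higher by 0.36 (SE 0.107, limma adjusted p = 0.0225), where 29.5% of all genes were called and 11.6% were higher (15.3% with median-of-ratios scaling). All its mNES libraries lay above myb3r4, as for 16.2% of all genes. That call was lost without mNES replicate 1 (0.24, adjusted p = 0.0968) or myb3r4 replicate 3 (adjusted p = 0.0706), and with only the groups compared (0.0651). Against the double mutant, 9 of 10 genes were higher in the mNES line, where 54.5% of all genes were called and 20.4% were higher (26.8% with median-of-ratios scaling). Their changes ran from 0.33 (XCP2) to 1.10 (LAC4), all 9 with no overlap between the groups, as for 21.7% of all genes in that direction. IRX10 was at -0.057 (SE 0.0926, adjusted p = 0.621), and its sign turned with median-of-ratios scaling, at 0.024.

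Other genes of the programme were followed in the double mutant against Col-0 through lists of known members, whose counts stand against 41.6% called, 17.1% lower and 24.5% higher over all genes tested. Of 33 transcription factors, activators and repressors together, 29 were tested, of which 7 fell, 2 rose and 20 did not pass, with a median of -0.22. The share called, 31.03%, was below that of all genes, and the share lower was 24.1%, beside 17.1% of all genes. With median-of-ratios scaling 10 of the 29 fell, beside 21.1% of all genes. The MYB factors MYB103 (-1.02) and MYB85 (-0.99), the homeodomain factor KNAT7 (-0.84), listed as a repressor, and the NAC switch NST1 (-0.79, adjusted p = 0.000216) fell most. NST1 was at 4.47, 5.92 and 4.66 TPM in Col-0 and at 2.66, 3.03 and 2.34 TPM in the double mutant. Its relative NST2 was at -0.67 (adjusted p = 0.0303), a call lost with only the groups compared (adjusted p = 0.106), without Col-0 replicate 1 (0.107) or 3 (0.0524), or without double-mutant replicate 3 (0.131). MYB46 was at 3.95, 3.85 and 3.51 TPM in Col-0 and at 3.47, 2.36 and 1.58 TPM in the double mutant. These groups did not overlap, but the change of -0.57 did not pass (adjusted p = 0.0641), except without double-mutant replicate 1 (-0.81, adjusted p = 0.0148). Among the other switches MYB83 was at -0.26, VND7 at -0.26 and VND6 at -0.17, none of which passed, and NST3 was listed at 0 in 14 of 15 libraries and not tested.

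Among 17 other xylan genes, 6 fell, 2 rose and 9 did not pass, with a median of -0.15. The share called, 47.1%, was near the 41.6% of all genes, and 35.3% were lower. GAUT12, which acts on the xylan end sequence, fell by 1.14, IRX15 by 0.96, GUX1, which adds glucuronic acid side groups, by 0.91 and FRA8 by 0.70. Of 11 tested genes for secondary wall cellulose and its cytoskeleton, 6 fell, 1 rose and 4 did not pass, with a median of -0.32, and 54.5% were lower. CTL2, a chitinase-like protein of cellulose deposition, fell by 1.09, MIDD1, which clears microtubules where pits form, by 0.57, IQD13, which shapes pits, by 0.45 and TED6 by 0.44. Of 10 tested genes of primary wall cellulose, 2 fell, 1 rose and 7 did not pass, with a median of -0.048, close to 0. CESA9, a subunit best known from seed coats, fell by 1.04 and CTL1 by 0.20, and CESA5 rose by 0.22. With median-of-ratios scaling 4 of these 10 fell.

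For lignin, 5 of 14 monolignol genes fell, 0 rose and 9 did not pass, with a median of -0.11, and 8 fell with median-of-ratios scaling. The share called, 35.7%, was below the 41.6% of all genes. As every call was a fall, the share lower was also 35.7%, beside 17.1% of all genes. With median-of-ratios scaling, where 8 fell, 21.1% of all genes were lower. The ligases 4CL2 (-0.72) and 4CL1 (-0.37) and the ammonia lyases PAL4 (-0.33) and PAL3 (-0.32) were the largest falls. Of 5 tested laccases outside the members, LAC11 fell by 0.59 and 4 did not pass, with a median of 0.12. The share lower, 20%, was near the 17.1% of all genes. Both tested peroxidases rose, PRX71 by 1.58 and PRX72 by 0.37, opposite to the laccases that fell. PRX71 was under 1 TPM in Col-0 and at 3.36, 3.94 and 3.198 TPM in the double mutant. Of 6 genes of xylem cell death, 3 fell (50%, beside 17.1% of all genes) and 3 did not pass, with a median of -0.36. Those that fell were the nuclease BFN1 (-1.11), the ribonuclease RNS3 (-1.06) and ACL5 (-0.42), which makes thermospermine.

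**Figure D4:**
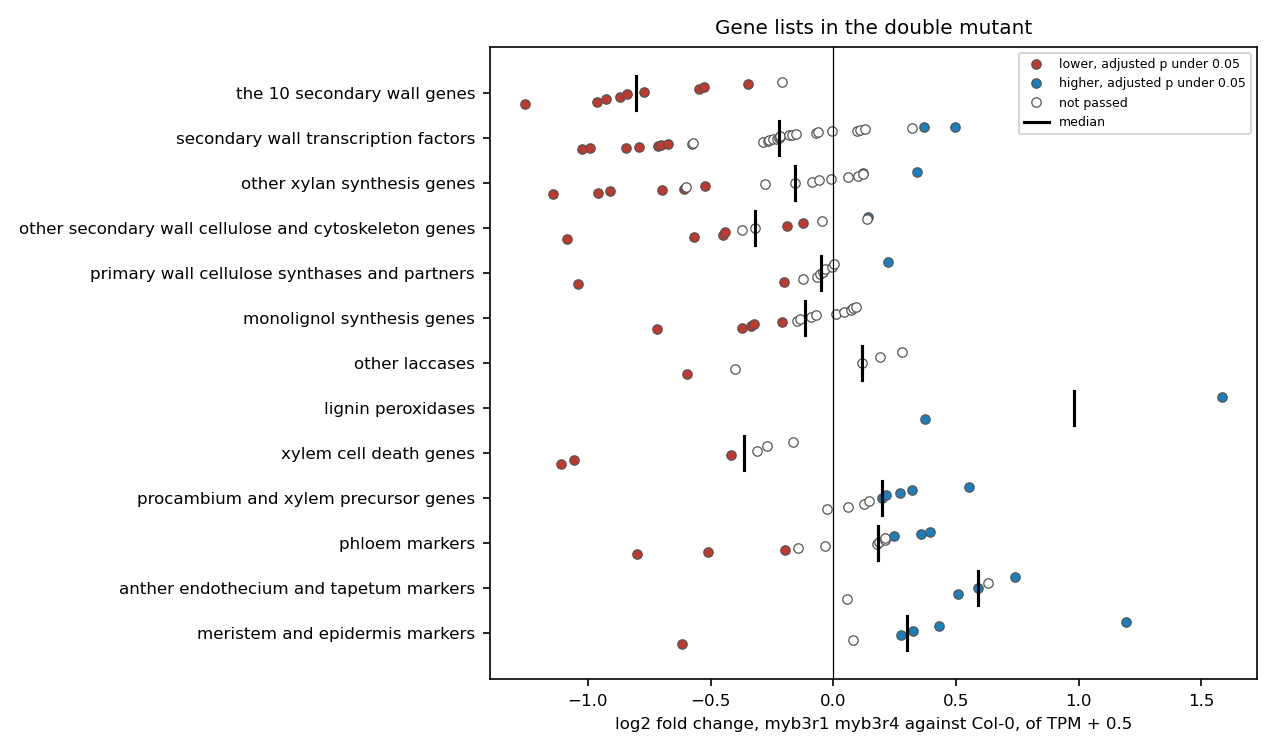
Change of each tested gene in the double mutant against Col-0 on the log2(TPM + 0.5) scale, by list, with the median of each list (black line) and calls by adjusted p under 0.05 (filled). The 10 wall genes have a median of -0.81, and procambium genes one of 0.20.

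Genes of other cell types moved in the same libraries, and their part in the result was not tested. Of 9 genes of procambium and xylem precursors, 5 rose, 0 fell and 4 did not pass, with a median of 0.20. The share higher was 55.6%, beside 24.5% of all genes. With median-of-ratios scaling 4 of the 9 rose, beside 17.5% of all genes. Those that rose in the main model included TMO5 (0.55), MP (0.32), ATHB8 (0.27) and PXY (0.22). The summed level of the list was 155 to 165 TPM in Col-0, 176 to 188 in myb3r1, 167 to 189.6 in myb3r4, 174 to 195 in the double mutant and 149.8 to 157 in the mNES line. Phloem markers went both ways, with 3 lower, 3 higher and 6 of 12 not passed, a share called of 50% beside 41.6% of all genes, and shares lower and higher of 25% each beside 17.1% and 24.5%. PP2-A1, a phloem lectin, fell by 0.80 and the sucrose carrier SUC2 by 0.51, while SMXL5 (0.39) and OPS (0.36), which act early in phloem, rose. The summed level of the phloem list was 199 to 207 TPM in Col-0, 187 to 194 in myb3r1, 184 to 192 in myb3r4, 163 to 178 in the double mutant and 173 to 186 in the mNES line. PP2-A1 (mean 59.7 TPM in Col-0 and 34.2 TPM in the double mutant) and SUC2 (53.1 TPM in Col-0) had the highest Col-0 levels in this list. The median change of the 12 markers was 0.18.

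The anther endothecium also builds secondary walls, and its only marker in the list, MYB26, was at 0.058 and did not pass (adjusted p = 0.717). A single marker cannot show whether wall transcripts of that tissue changed, and this was not tested. Of the 5 anther markers 3 rose, 0 fell and 2 did not pass, a share higher of 60% beside 24.5% of all genes. Those that rose were the tapetum genes AMS (0.74), MYB80 (0.59) and MS1 (0.51), but without Col-0 replicate 2 or 3 or double-mutant replicate 2 only 1 of the 5 was called. The summed anther level was 77.5 to 89.0 TPM in Col-0, 83.8 to 99.5 in myb3r1, 73.2 to 92.2 in myb3r4, 120.5 to 129.95 in the double mutant and 48.7 to 63.6 in the mNES line. Of 6 tested meristem and epidermis markers, 4 rose, 1 fell and 1 did not pass. The share higher was 66.7% and the share lower 16.7%, beside 24.5% and 17.1% of all genes. LFY (1.19), PDF1 (0.43) and ATML1 (0.32) were higher and WUS (-0.62) was lower. The list's summed level was 889 to 981 TPM in Col-0, 1018 to 1045 in myb3r1, 939.6 to 1053 in myb3r4, 1189 to 1257 in the double mutant and 709 to 746 in the mNES line. PDF1, an epidermis gene, made up most of that sum, with a mean of 759 TPM in Col-0 and 1024 TPM in the double mutant. So the double-mutant sums of the anther and of the meristem list lay above all other libraries, and its phloem sums below those of Col-0 and both single mutants. These sums weigh the highest genes most, namely AMS (anther), PDF1 (meristem and epidermis), and PP2-A1 and SUC2 (phloem).

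The genes most like the 10 were ranked by the root mean square distance between their centred log2 values and the mean of the 10 over the 15 libraries. The nearest genes outside the 10 were AT1G47410 (0.0872), AT4G27435 (0.0910), UXS6 (0.0922), PP2-A1 (0.0986), FLA11 (0.0997), AT1G08340 (0.101), AT1G63220 (0.102) and AT4G04460 (0.105). UXS6 makes UDP-xylose, the sugar donor of xylan, and FLA11 is a fasciclin-like arabinogalactan protein of secondary walls. AT4G04460 had the highest level, with a mean of 249 TPM in Col-0 and 133 TPM in the double mutant. Of the 10 themselves, CESA4 ranked 1, CESA8 3 and CESA7 12 among all genes tested, while LAC4 ranked 883, XCP1 1590 and IRX10 2040. These ranks describe likeness of profile only, and those of the 10 are set in part by their place in the mean.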

How the data were processed

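The authors deposited 1 table of TPM per gene for all 15 libraries. FastQC, Salmon and the TAIR10 build are named, per the submitters' processing notes, and their versions, settings and the way transcripts were summed to genes are not given in the sources used here. Samples were grouped by their labelled genotype.

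TPM were transformed to log2(TPM + 0.5), and genes with at least 1 TPM in at least 3 libraries were tested (21737 of 33326; 4636 were at 0 throughout). The 0.5 shrinks fold changes of low genes. The added value and the scaling to a fixed total bear most on small changes. All 15 libraries entered 1 limma model with a mean for each of 5 groups, using limma 3.58.1 in R 4.3.3 (variance trend, 10 residual and 3.18 prior degrees of freedom), and was tested on simulated data. Tests were two-sided with Benjamini-Hochberg adjustment at 0.05 over all tested genes. Lists held 167 entries, of which 155 had the listed symbol in the annotation, and the other 12 were dropped. All 10 members were named. From each list the text names up to 4 genes that passed in the double mutant with the largest change, plus 7 NAC and MYB switches whatever their values. The 8 most alike genes were named by distance. Positions, promoters and transcripts came from RefSeq TAIR10.1; builds named TAIR10 and TAIR10.1 share gene identifiers. The members, lists and tests were chosen with earlier results of these data known. Alternatives were other added values, filters and scalings, no variance trend, a replicate block, only the groups compared, and each library left out. The replicate number equals a label called shift experiment, which is not explained. Across all tested genes, same-numbered libraries did not deviate together (30 pairs, r of -0.13 to 0.088), so the main model has no block. That check was not made for the 10 genes alone.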

Additional observations from a re-analysis of the deposited data

Results flagged for a closer look

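For 2 of the 10 wall genes, the effect of the myb3r4 mutation differed between the wild-type and the myb3r1 background by a test of the difference itself, the interaction term of the limma model. CESA4, a cellulose synthase subunit, departed by -0.644 on the log2 scale (adjusted p = 0.0382). IRX9, a xylan glycosyltransferase, departed by -0.715 (adjusted p = 0.0477). Of all genes tested, 12.3% passed in this contrast and 5.95% had a negative value. Both calls were lost in 8 of the 12 refits that left out 1 library of the 4 groups compared. Both were also lost with no filter on low values (adjusted p = 0.0591 for CESA4 and 0.0731 for IRX9), with no variance trend (0.0531 and 0.0554) and with only the groups compared (0.0526 and 0.0541). IRX9 alone was lost with 1 added to each TPM (0.0508) and with the replicate block (0.0565).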

How the results depend on the processing

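Of 2178 refitted fold changes of single genes, 2072 kept their direction and side of the threshold, 56 lost their call, 12 gained one and 38 changed sign. The counts of wall genes lower in the double mutant stayed at 9 or 10 of 10 against Col-0 and at 8 or 9 against either single mutant, and the counts against Col-0 in the single mutants stayed at 0, under every alternative run. The single call of the mNES line against Col-0 (XCP1) was 0 with no filter on low values, with no variance trend, with a replicate block and with only the groups compared, and ran from 0 to 1 over left-out libraries. That against myb3r4 was 0 with only the groups compared and ran from 0 to 1. The 2 interaction calls became 0 with no filter or no variance trend, and 1 with 1 added to each TPM, with a replicate block or with only the groups compared (XCP1, adjusted p = 0.0488, in that last model), and ran from 0 to 5 over left-out libraries. With the block the adjusted p was 0.0577 for XCP1 in the mNES line against Col-0 and 0.0565 for the IRX9 interaction. In the double mutant against Col-0 it moved the falls among other xylan genes from 6 to 7 and among monolignol genes from 5 to 6, and left the counts of the other lists as they were. COBL4 in the double mutant against myb3r4 was lost with only the groups compared (adjusted p = 0.0568). In these cases the cause was not tested.

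Sign changes were all of values near 0 that did not pass. For the mNES line against myb3r4, CESA4 turned to 0.035 and 0.033 with median-of-ratios and upper-quartile scaling (left-out libraries -0.092 to 0.056), CESA8 to -0.000145 with 1 added (-0.115 to 0.098), and IRX9 ran from -0.045 to 0.13. Against Col-0 in the mNES line, LAC17 turned to 0.016 and 0.0061 (-0.12 to 0.089) and XCP2 to 0.017 and 0.0070 (-0.091 to 0.066) with those scalings, and against the double mutant IRX10 turned to 0.024 with the first. Over left-out libraries, myb3r1 against Col-0 ran from -0.13 to 0.047 for CESA4, -0.15 to 0.026 for IRX10, -0.067 to 0.14 for IRX9 and -0.19 to 0.072 for LAC17. Likewise myb3r4 ran from -0.13 to 0.062 for CESA7 and -0.098 to 0.016 for XCP1, and the interaction of IRX10 from -0.097 to 0.084. With no filter, 3 of 13 other laccases fell and 4 of 4 peroxidases rose; with a filter of 5 TPM, 3 of 12 xylan genes fell and no peroxidase was tested. Without Col-0 replicate 3, 2 other laccases fell. MYB80 lost its call in 3 left-out refits and MS1 in 5, and MS1 also with no filter and with either scaling. Scalings moved the median of all genes by at most 0.083. Read depth is unknown, so counting error at low TPM cannot be given.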
